A study of Mus musculus with 14 samples.

Results

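8 genes of the death receptor pathway and of the inhibitor of apoptosis (IAP) family were followed in irradiated mouse tissue with and without Atm: Fas, Casp8, Cflar, Apaf1, Birc2, Birc3, Xiap and Traf1. All probe sets that the platform annotation assigns to these 8 symbols alone were taken, which gave 12 probe sets, out of 8252 genes named by at least 1 probe set. RNA labelled as mouse lymph node had been hybridised to 14 one-colour Affymetrix arrays. The groups were Atm-/- (KO) without irradiation (3 arrays), at 30 min (2 arrays) and at 120 min (2 arrays) after ionizing radiation, and Atm+/+ (WT) without irradiation (3 arrays), at 30 min (2 arrays) and at 120 min (2 arrays). The sources used here do not give the radiation dose, the strain, age and sex of the mice, the lymph node taken or the way the Atm allele was made. Nor is it stated whether arrays of a group came from separate mice, so the p-values measure the spread between these samples, which may be technical.

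Death receptors such as Fas recruit the initiator caspase Casp8 when their ligand binds, and Cflar competes with Casp8 in that complex. The mitochondrial route runs through Apaf1, which assembles the apoptosome after cytochrome c release, and XIAP binds and blocks active caspases downstream of both routes. Birc2 and Birc3 encode the ubiquitin ligases cIAP1 and cIAP2, which bind TNF receptor complexes through TRAF proteins and direct signalling towards NF-kB. ATM is the kinase that answers DNA double-strand breaks, and in irradiated lymphoid cells it is known to act on p53 and on NF-kB.

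Birc3 was the member that rose: at 120 min its signal averaged 236 ± 20.1 in irradiated WT tissue and 36 ± 8.09 in untreated WT tissue (SD, n = 2 and 3). No rise passed the test in KO tissue, where Birc3 averaged 44.9 ± 10.3 at 120 min and 53.8 ± 16.3 untreated (SD, n = 2 and 3). Its chromosomal neighbour and close relative Birc2 did not pass the test in either genotype. The Fas probe set 102921_s_at had a low signal on every array, and it was higher at 120 min than untreated in both genotypes without passing the test, while the WT groups of the other Fas probe set overlapped.

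Birc2 and Birc3 lie next to each other on chromosome 9, with 0 annotated genes between them. Cflar and Casp8 lie on chromosome 1 with 0 protein-coding genes and 1 long non-coding RNA gene, Gm39646, between them. The 250 bases before an annotated start of each of Birc3, Birc2 and Fas are shown because these 3 genes carry the contrasts described below. They were taken from RefSeq (build GRCm38.p6) at chr9:7873171-7873420 on the minus strand, chr9:7837058-7837307 on the minus strand and chr19:34290409-34290658 on the plus strand, and capitals mark CpG dinucleotides. The annotated genes begin at 7873205, 7837131 and 34290647 in that order, so each window reaches into its gene.
Birc3: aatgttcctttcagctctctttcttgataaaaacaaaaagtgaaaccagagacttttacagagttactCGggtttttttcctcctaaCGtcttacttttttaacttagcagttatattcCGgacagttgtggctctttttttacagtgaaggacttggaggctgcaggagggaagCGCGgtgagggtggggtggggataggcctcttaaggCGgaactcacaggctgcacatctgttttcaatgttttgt
Birc2: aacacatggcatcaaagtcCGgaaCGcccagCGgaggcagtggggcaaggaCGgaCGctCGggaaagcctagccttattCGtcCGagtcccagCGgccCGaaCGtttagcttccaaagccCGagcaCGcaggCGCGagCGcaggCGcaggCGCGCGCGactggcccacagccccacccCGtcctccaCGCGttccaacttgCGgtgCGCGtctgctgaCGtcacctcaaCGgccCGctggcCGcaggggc
Fas: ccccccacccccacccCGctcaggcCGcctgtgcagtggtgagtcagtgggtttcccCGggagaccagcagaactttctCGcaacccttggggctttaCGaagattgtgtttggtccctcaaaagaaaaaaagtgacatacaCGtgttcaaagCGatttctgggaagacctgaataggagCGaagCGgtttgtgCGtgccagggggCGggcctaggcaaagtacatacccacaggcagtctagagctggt
The Birc3 window held 6 CpG and 43.6% G or C, and the Birc2 window shown held 31 CpG and 68.4% G or C. A second Birc2 start, not shown, had 19 CpG and 61.2%. The Fas window held 11 CpG and 56.4%. Over all 32851 windows of this length the medians were 6 CpG and 52.4%. The 8 genes had 11 such windows in all. None of them held a match on either strand to the NF-kB consensus or to the p53 half-site, searched by those names, which 7.25% and 7.13% of all windows held. TATAAA occurred in 12.4% of all windows and in those of Cflar, with 2 overlapping matches on opposite strands, and of 1 of 3 Xiap starts. These letters describe the windows only, and a missing match says nothing about the factor.

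The values below are deposited array intensities, on a linear scale with no unit. Changes were estimated as differences of quantile-normalized log2(intensity + 32) with limma, which makes changes of dim probe sets look smaller than they are. A change was called at a Benjamini-Hochberg adjusted p under 0.05 over 8938 tested probe sets. Only probe sets that exceeded the 40th percentile of the array in 2 or more arrays were tested. Of the 12 member probe sets 8 were tested, for 6 genes. The Fas probe set 102921_s_at, the Xiap probe set 93401_g_at and the only Traf1 probe set were too dim, and the other Fas probe set, AFFX-MurFAS_at, is a control probe set. For these 4, a fit of all 12488 probe sets gave the changes. Levels were not compared between probe sets, because each has its own brightness, and the letters f, g and s in an Affymetrix name mark probes that can match more than 1 transcript. In tissue RNA, fewer cells of a type and less RNA per cell cannot be told apart.

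**Figure D1:**
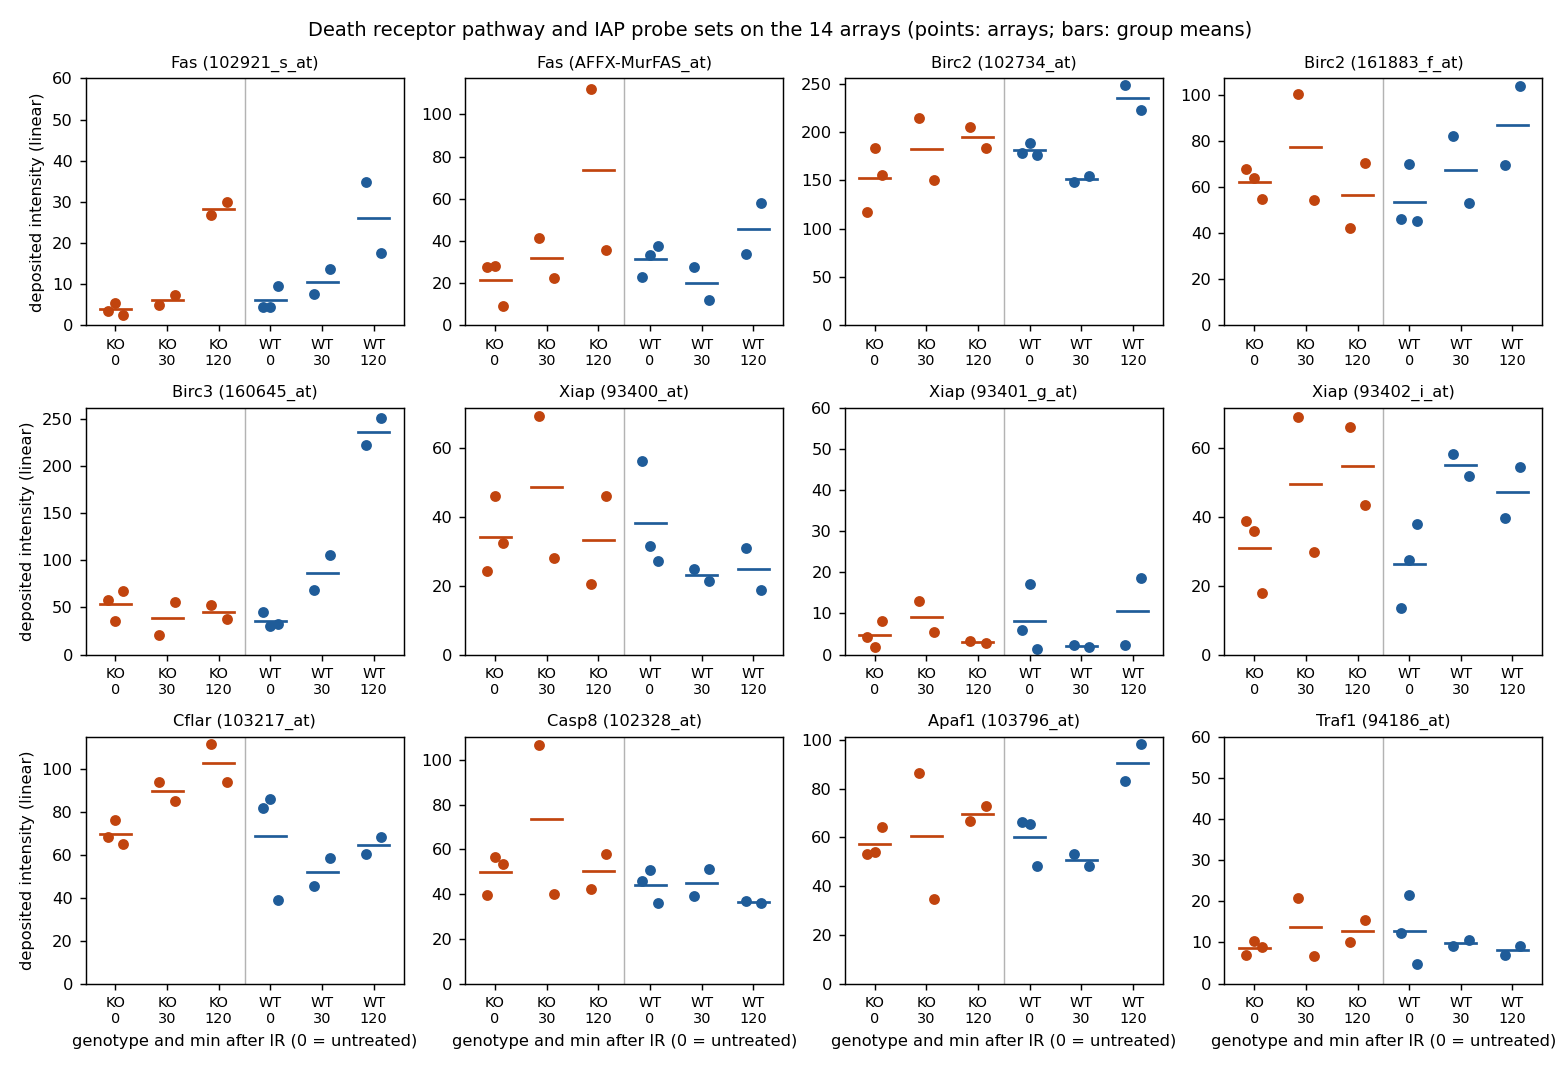
Deposited intensity of every member probe set on each of the 14 arrays, by genotype and time after irradiation, with bars at the group means. Tested and untested probe sets are drawn alike. Birc3 on the 2 WT arrays at 120 min, at 222.2 and 250.6, stood above its other 12 arrays, which reached at most 105.4.

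Fas, the receptor that starts the pathway, gave 3.6, 5.5 and 2.6 on untreated KO arrays, 5 and 7.5 at 30 min and 26.8 and 29.9 at 120 min with probe set 102921_s_at. On WT arrays it gave 4.4, 4.5 and 9.6 untreated, 7.6 and 13.6 at 30 min and 34.9 and 17.5 at 120 min. All 4 arrays at 120 min were above all 10 other arrays, although no array exceeded its own 40th percentile. At 120 min against untreated the change was 0.74 ± 0.19 on the log2 scale in KO tissue (SE, adjusted p = 0.553) and 0.67 ± 0.19 in WT tissue (SE, adjusted p = 0.312), and neither passed. The average of both genotypes was 0.71 ± 0.14 (SE, adjusted p = 0.0828), and the difference between KO and WT responses had a 95% interval of -0.52 to 0.66. With values under 32 raised to 32 in place of the offset that average was 0.10 (adjusted p = 0.794), as all but 1 of these 14 signals lie below 32. It passed without quantile normalization (adjusted p = 0.0488) and with a trended, robust variance prior (adjusted p = 0.0383).

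The second Fas probe set gave 27.7, 28.3 and 9 on untreated KO arrays, 41.2 and 22.5 at 30 min and 111.9 and 35.7 at 120 min. In WT tissue it gave 22.9, 33.6 and 37.7 untreated, 27.7 and 12.2 at 30 min and 33.9 and 57.9 at 120 min. At 120 min both KO arrays were above the untreated KO arrays, while the WT groups overlapped. Its change at 120 min was 0.93 ± 0.30 in KO tissue (SE, adjusted p = 0.617) and 0.39 in WT tissue, neither of which passed. Over the 14 arrays the Fas probe sets had a Pearson correlation of 0.54, given as a description of arrays that share groups.

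Casp8, the caspase that Fas recruits, gave 39.7, 56.8 and 53.4 on untreated KO arrays, 106.9 and 40.2 at 30 min and 42.3 and 58 at 120 min. WT arrays gave 45.9, 50.9 and 36 untreated, 39 and 51.3 at 30 min and 36.9 and 35.9 at 120 min. KO array A at 30 min was the only one above 58, and it was also the array least correlated with the others (median correlation 0.928). The change at 120 min was 0.01 in KO tissue (95% interval -0.46 to 0.49) and -0.08 in WT tissue (95% interval -0.56 to 0.40).

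Cflar encodes c-FLIP, the inhibitor of that step. KO arrays gave 68.3, 76.4 and 65 untreated, 94.1 and 85.2 at 30 min and 111.5 and 93.9 at 120 min. WT arrays gave 82, 86 and 39 untreated, 45.5 and 58.6 at 30 min and 60.3 and 68.5 at 120 min. All 4 irradiated KO arrays were above all 3 untreated KO arrays, and above the irradiated WT arrays of the same time. KO tissue minus WT tissue was 0.47 at 30 min (95% interval 0.00 to 0.94) and 0.42 at 120 min (95% interval -0.05 to 0.89), and neither passed after adjustment. Against untreated tissue the change at 120 min was 0.42 in KO tissue (adjusted p = 0.69) and 0.02 in WT tissue.

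Apaf1, the core of the apoptosome, gave 53.1, 54 and 64.4 on untreated KO arrays, 86.4 and 34.6 at 30 min and 66.6 and 72.8 at 120 min. WT arrays gave 66.3, 65.5 and 48.2 untreated, 53.2 and 48.1 at 30 min and 83.2 and 98.2 at 120 min. At 120 min the irradiated arrays of each genotype were above its untreated arrays. The changes, 0.21 in KO tissue (95% interval -0.20 to 0.61) and 0.47 ± 0.19 in WT tissue (SE, adjusted p = 0.507), did not pass.

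Birc3 gave 57.7, 35.9 and 67.8 on untreated KO arrays, 21 and 56.1 at 30 min and 52.2 and 37.6 at 120 min. WT arrays gave 45.2, 30 and 32.8 untreated, 68.5 and 105.4 at 30 min and 222.2 and 250.6 at 120 min. In WT tissue the arrays of the 3 conditions did not overlap, in the order untreated, 30 min, 120 min. In KO tissue all 3 conditions overlapped.

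At 120 min Birc3 rose in WT tissue by 1.99 ± 0.27 on the log2 scale, 3.98-fold (SE, 95% interval 1.42 to 2.57, adjusted p = 0.00359). The size depends on the offset: Birc3 rose by 1.59 with an offset of 64, 2.30 with an offset of 16 and 2.69 with values under 32 raised to 32. It was the only member called of 8 tested probe sets, against a background of 0.515% of all tested probe sets called in this comparison. In KO tissue the change was -0.13 ± 0.27 (SE, 95% interval -0.71 to 0.45, adjusted p = 0.951). At 120 min Birc3 was lower in KO tissue than in WT tissue by -1.82 ± 0.29 on the log2 scale, a ratio of 0.283 (SE, 95% interval -2.45 to -1.19, adjusted p = 0.0185), and again it was the only 1 of 8 called (background 0.257%). The KO response minus the WT response was -2.12 ± 0.38 (SE, 95% interval -2.94 to -1.31), which did not pass in this fit (adjusted p = 0.0636, 0 of 8 members called, 1 at an unadjusted p under 0.05, background 0.134%). With an offset of 64 that difference passed (adjusted p = 0.0209), as it did under 4 other settings. Without WT 120 min array B, Birc3 no longer passed in WT tissue (1.92, adjusted p = 0.0828). The KO to WT comparison at 120 min no longer passed without WT 120 min array A (adjusted p = 0.123), WT 120 min array B (0.222), KO 120 min array A (0.116) or KO 120 min array B (0.0771), nor with an offset of 16 (0.0518), only the groups compared (0.0918) or the replicate letter as a block (0.0519).

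At 30 min the Birc3 change was -0.27 ± 0.27 in KO tissue (SE, adjusted p = 0.799) and 0.82 ± 0.27 in WT tissue (SE, adjusted p = 0.828), and neither passed. Within WT tissue, 120 min against 30 min gave 1.17 ± 0.29 (SE, adjusted p = 0.258). Without irradiation, KO minus WT was 0.30 ± 0.24 (SE, adjusted p = 0.988). Averaged over both genotypes, 120 min against untreated gave 0.93 ± 0.19 (SE, adjusted p = 0.0844).

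**Figure D2:**
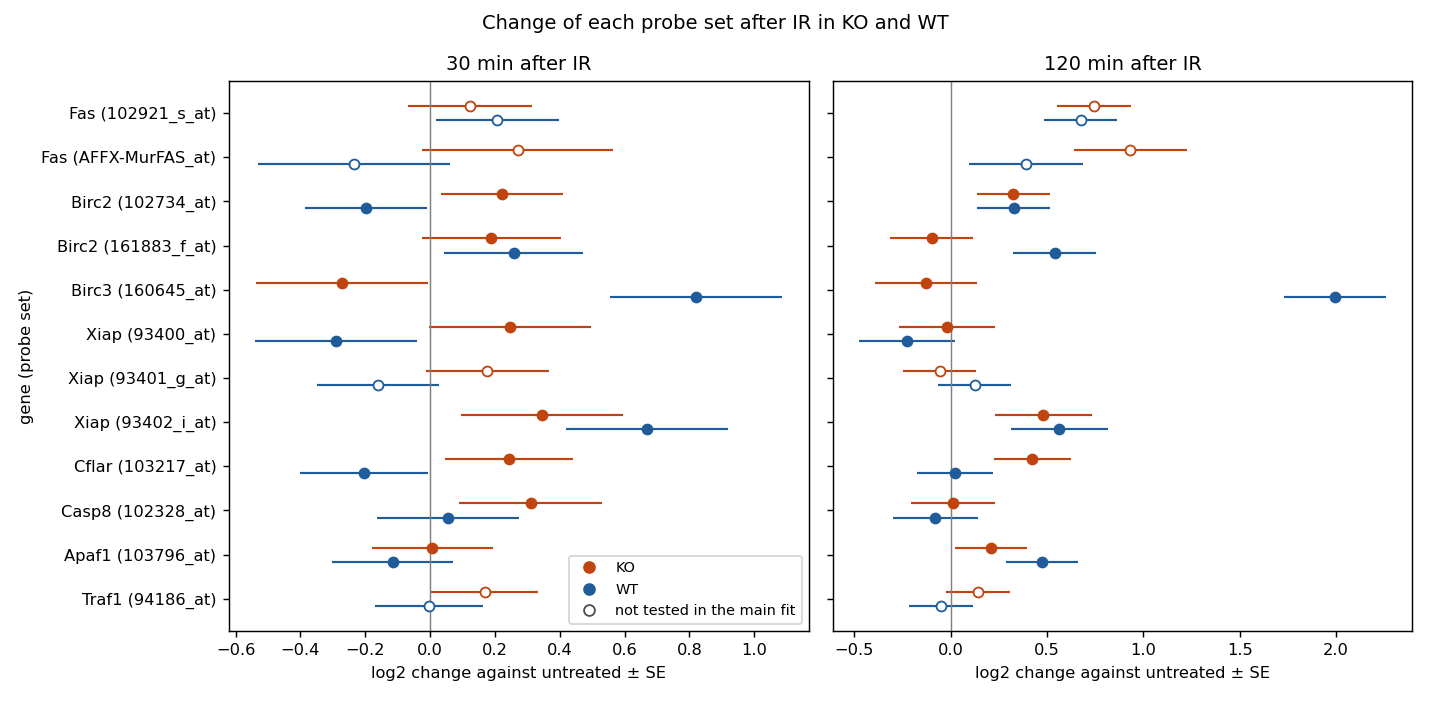
Log2 change at 30 and 120 min against untreated tissue, with bars of ± SE, for each member probe set in KO and WT tissue. Open symbols mark probe sets that were not tested. Birc3 at 120 min separates the genotypes, at -0.13 in KO tissue and 1.99 in WT tissue. At 120 min the SE bars of the genotypes are also apart for Cflar, at 0.42 in KO tissue and 0.02 in WT tissue. The same holds for Birc2 161883_f_at, at -0.10 in KO tissue and 0.54 in WT tissue. The bars of Fas, Apaf1 and the remaining member probe sets overlap between genotypes at 120 min.

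Summed intensities of markers of other cells also differed between the WT arrays at 120 min and the untreated WT arrays. The 10 B cell genes summed to 1203 to 1326 there and to 1925 to 2677 in untreated WT tissue, with 0 of 10 above 0 and 1, Cd22, that fell by 1.62 on the log2 scale (adjusted p = 0.0053). In KO tissue the B cell sums were 2153 to 2942 at 120 min and 1668 to 2259 untreated. The T cell sums were 662 to 674 at 120 min and 952 to 1041 untreated in WT tissue. In KO tissue the T cell sums were 829.8 to 1056.5 at 120 min and 691.8 to 876.7 untreated. The macrophage and monocyte sums were 2035 to 2038 at 120 min and 1184 to 1321 untreated in WT tissue, where 5 of 8 tested genes were above 0 (median 0.06) and 1 was called, Cd14, which rose by 2.10 (adjusted p = 0.000869). In KO tissue these sums were 1306 to 1670 at 120 min and 1188 to 1325 untreated. Endothelial sums were 975.6 to 1397 at 120 min and 1290 to 1558 untreated in KO tissue, against 829.9 to 921.5 and 1107 to 1215 in WT tissue. Adipocyte sums were 933 to 1487 at 120 min and 1190 to 1458 untreated in KO tissue, against 1041 to 1356 and 1487 to 1616 in WT tissue. Skeletal muscle sums were 949 to 3635 in KO tissue at 120 min and 3684 to 11542 in untreated KO tissue, against 3894 to 3918 and 1366 to 3177 in WT tissue at the same times. Neutrophil sums were 449.1 to 946.7 at 120 min and 337.3 to 643.5 untreated in KO tissue, against 281.1 to 307.8 and 289.1 to 417.4 in WT tissue. The 6 salivary gland genes, which the lymph node label does not cover, summed to between 38911 and 69757 on the 14 arrays. In KO tissue these sums were 62892 to 64519 at 120 min, 52972 to 69757 at 30 min and 38911 to 51515 untreated. In WT tissue they were 47614.5 to 55226 at 120 min, 48389 to 62957 at 30 min and 46150 to 50699 untreated. No list had a gene at 0. The 3' Gapdh signal divided by the 5' Gapdh signal, a ratio that reflects RNA integrity, was 0.857 and 0.777 at 120 min in KO tissue. It was 1.07 and 0.97 at 30 min and 0.896, 0.867 and 0.976 untreated. In WT tissue the ratios were 0.891 and 0.723 at 120 min, 0.851 and 0.89 at 30 min and 0.958, 0.902 and 1.01 untreated. The arrays at 120 min were below the untreated arrays in both genotypes, and so were the WT arrays at 30 min. The part of these cells and of RNA integrity in the Birc3 result was not tested.

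Birc2, which encodes cIAP1, gave 117.5, 184.1 and 155.4 on untreated KO arrays, 215.1 and 150.2 at 30 min and 205.8 and 183.6 at 120 min with probe set 102734_at. WT arrays gave 178.6, 189.1 and 176.8 untreated, 148.4 and 154.6 at 30 min and 249 and 222.4 at 120 min. Both WT arrays at 120 min were above the untreated WT arrays, and the KO groups overlapped. The change at 120 min was 0.33 in KO tissue (adjusted p = 0.762) and 0.33 in WT tissue (adjusted p = 0.686), with a KO minus WT difference between -0.58 and 0.58 (95% interval). The other probe set, 161883_f_at, lay between 42.3 and 103.9 on all arrays, and its change at 120 min was -0.10 in KO tissue and 0.54 in WT tissue (adjusted p = 0.526). The Birc2 probe sets correlated at only 0.26 over the 14 arrays.

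Xiap, the direct caspase inhibitor, had 3 probe sets that did not vary together (Pearson correlations of -0.13, -0.39 and -0.03 over 14 arrays, as a description). Probe set 93402_i_at gave 38.7, 35.9 and 18 on untreated KO arrays, 69 and 29.9 at 30 min and 66.1 and 43.4 at 120 min. In WT tissue it gave 13.4, 27.6 and 37.9 untreated, 58.4 and 51.9 at 30 min and 39.8 and 54.6 at 120 min. At 120 min it was above untreated in both genotypes without overlap, by 0.48 in KO tissue (95% interval -0.06 to 1.02) and 0.56 in WT tissue (95% interval 0.02 to 1.11). Neither change passed in limma (adjusted p = 0.737 in KO tissue and 0.554 in WT tissue). Probe set 93400_at lay between 18.8 and 69.4 and moved by -0.02 in KO tissue and -0.23 in WT tissue at 120 min. The third, 93401_g_at, lay between 1.4 and 18.7, so Xiap showed no direction that its probe sets share.

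Traf1, the adaptor that binds the TNF receptors together with cIAP proteins, was dim throughout. It gave 7, 10.4 and 8.9 on untreated KO arrays, 20.8 and 6.7 at 30 min and 10 and 15.5 at 120 min, against 12.2, 21.5 and 4.8, then 9.2 and 10.5, then 6.9 and 9.2 on the WT arrays of the same conditions. The arrays of every time overlapped within each genotype, while at 120 min both KO arrays were above both WT arrays. That KO minus WT difference was 0.10 on the log2 scale (95% interval -0.29 to 0.50, adjusted p = 1).

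Over all 8 tested members, the median change at 120 min was 0.11 in KO tissue and 0.40 in WT tissue, on the log2 scale. In KO tissue 0 of 8 were called and 0 had an unadjusted p under 0.05, where the background was 0% of all tested probe sets called, with 645 at an unadjusted p under 0.05 in limma. In WT tissue 1 was called and 4 had an unadjusted p under 0.05, where the background was 0.515% called, with 774 of 8938 at an unadjusted p under 0.05. Without overlap, 3 of 8 were higher at 120 min in KO tissue (background 13.2%) and 4 of 8 in WT tissue (background 12.1%). In KO tissue these were Cflar, Apaf1 and Xiap 93402_i_at, and in WT tissue Birc3, Apaf1, Birc2 102734_at and Xiap 93402_i_at.

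At 30 min limma called 0 of 8 members in KO tissue (background 0%, 749 probe sets at an unadjusted p under 0.05) and 0 of 8 in WT tissue (background 0.101%). KO against WT gave 0 of 8 called untreated (background 0%, 490 unadjusted) and 0 of 8 at 30 min (background 0.101%). The difference of responses at 30 min gave 0 of 8 (background 0.0783%), 120 min against 30 min gave 0 of 8 in KO tissue (background 0%, 640 unadjusted) and 0 of 8 in WT tissue (background 0.123%), and the average of both genotypes gave 0 of 8 (background 0.213%).

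The wider pathway was described from fixed lists. Of 66 listed ligands, receptors, adaptors, caspases, other IAPs and execution factors, 43 were on the array and 34 were tested, of which limma called 0 in each of the 12 comparisons. At a background of between 0% and 0.515% of tested probe sets called, 0 of 34 is near the share over all probe sets. At 120 min 19 of 34 were above 0 in KO tissue (median 0.03) and 23 of 34 in WT tissue (median 0.07). Among the 10 adaptors and kinases 6 were above 0 in KO tissue and 10 in WT tissue. Mitochondrial and execution factors gave 3 of 8 in KO tissue and 2 of 8 in WT tissue, and ligands 1 of 2 and 0 of 2. Receptors gave 5 of 8 and 6 of 8, caspases 2 of 4 and 3 of 4, and other IAPs 2 of 2 in both. Over all tested probe sets the median change at 120 min was -0.003 in KO tissue and -0.004 in WT tissue. The receptor Cd40 was at 0.90 in KO tissue (adjusted p = 0.601) and 0.21 in WT tissue. The adaptor Traf5 was at 0.76 in KO tissue (adjusted p = 0.762) and 0.55 in WT tissue (adjusted p = 0.803). The ligand Ltb was at 0.21 in KO tissue (adjusted p = 0.873) and -0.76 in WT tissue (adjusted p = 0.234), and Diablo, which releases caspases from IAPs, was at 0.10 in KO tissue and -0.62 in WT tissue (adjusted p = 0.554).

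**Figure D3:**
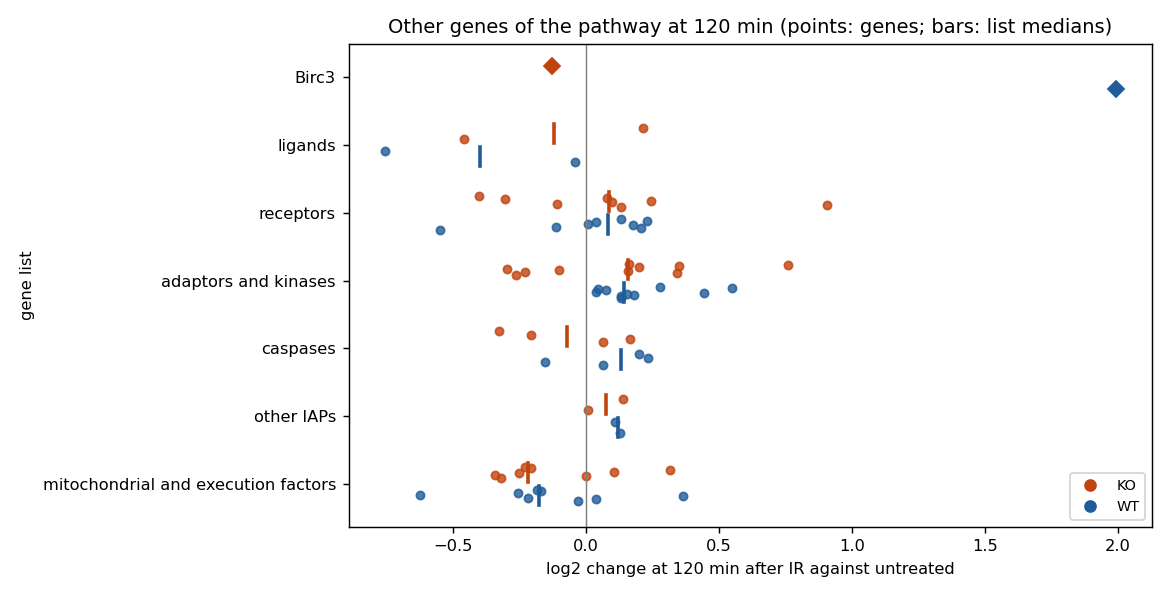
Log2 change at 120 min against untreated tissue for each tested gene of the 6 pathway lists in KO and WT tissue, with the list medians. None of the 34 genes passed the test, and the values lie on both sides of 0.

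The 5 genes whose normalized log2 values over the 14 arrays were most correlated with Birc3 were Sox4 (Pearson r = 0.953), Bcl10 (0.948), D17H6S56E-5 (0.944), Tubb2a (0.917) and Plk2 (0.916). These arrays share their groups and tissue, so the r values are a description. Sox4 was at 112.2 and 84.9 on the KO arrays at 120 min and at 374.1 and 364.8 on the WT arrays at 120 min. Bcl10, a scaffold of antigen receptor signalling to NF-kB, was at 166.2 and 166.6 on the KO arrays and at 311.3 and 334.5 on the WT arrays at that time.

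**Figure D4:**
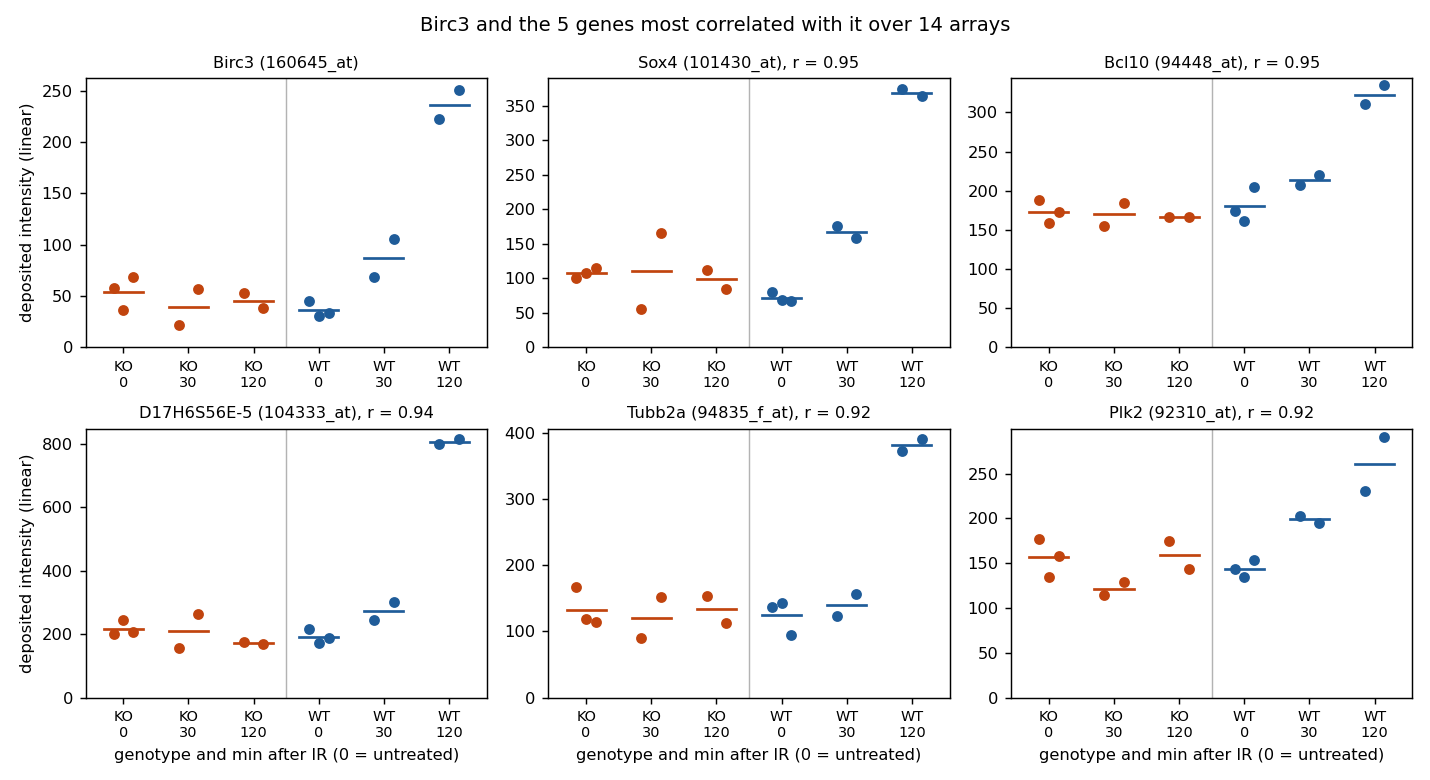
Values of Birc3 and of the 5 genes most correlated with it on the 14 arrays, by genotype and time. All 6 are highest on the WT arrays at 120 min.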

How the data were processed

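Total RNA from tissue labelled murine lymph node was hybridised to 14 arrays. The deposited values are 1 intensity per probe set and array, from 0 to 15198.3, and the authors had scaled each array to a common target, as read from the deposited intensity values (mean without the highest and lowest 2%: 150.1 on each array). The sources used here do not name the software that made them. Precision is limited by the number of arrays.

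The intensities were transformed to log2(intensity + 32), quantile normalized over all 12488 probe sets because the array medians spanned 0.273 (limit 0.2), and fitted with limma 3.58.1 in R 4.3.3 as 6 group means over 14 arrays (8 residual and 4.56 prior degrees of freedom). After removing 66 control probe sets, 8938 probe sets above the array's 40th percentile on at least 2 arrays were tested. Gene names came from the platform annotation. Promoter windows and neighbours were read with Python 3.11.15. The scripts were tested on simulated data. Named were all members, list genes called or with the largest changes, and the 5 genes most correlated with Birc3. The members, lists and tests were chosen with earlier results of these data known. Alternatives covered normalization, offset, filter, arrays in the fit, variance prior, a replicate block and leaving out each array.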

Additional observations from a re-analysis of the deposited data

Results flagged for a closer look

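The control probe set for Fas, AFFX-MurFAS_at, lies outside the tested probe sets. On 3 irradiated arrays it exceeded the highest untreated array of either genotype, which was at 37.7. KO 30 min array A was at 41.2, KO 120 min array A at 111.9 and WT 120 min array B at 57.9. The second arrays of the same groups were at 22.5, 35.7 and 33.9.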

How the results depend on the processing

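The count of called members at 120 min in WT tissue, 1 (Birc3), was 1 under the other alternatives run and ranged from 0 to 1 over the left-out arrays, being 0 without WT 120 min B. For KO against WT at 120 min the count of 1 became 0 with an offset of 16 (Birc3 -2.08, adjusted p = 0.0518), with only the groups compared (0.0918), with the replicate block (-1.82, adjusted p = 0.0519), and without the 3 arrays of lowest correlation, added after seeing the data (0.0501); over left-out arrays it ranged from 0 to 1. For the difference of responses at 120 min, 0 became 1 (Birc3) with no quantile normalization (adjusted p = 0.0281) or median centring (0.0385). So it did with an offset of 64 (0.0209), a floor of 32 (0.0481) and only the groups compared (0.0253). It ranged from 0 to 1 over left-out arrays, passing without KO untreated B (0.0453) or KO 30 min A or B. For the average at 120 min, added after seeing the data, 0 became 1 with offset 64 (0.0305) and only the groups compared (0.0355). Over left-out arrays it was 0 to 1, passing without KO 30 min A or B. Those fits kept the average at 0.932 and the difference at -2.122 and altered only the spread estimate. The change of Birc3 in WT tissue at 120 min kept its call under the 12 settings other than left-out arrays. Over left-out arrays this change was 1.916 to 2.065. Only untreated WT arrays and WT arrays at 120 min enter it. Leaving out any other array kept it at 1.993 and altered only the estimate of the spread, so those fits could not test its size.

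Directions that turned were uncalled. Beside the 10 larger turns given here, 152 of 3576 recomputed values changed sign or became exactly 0. For Birc3 at 120 min in KO tissue, left-out arrays gave -0.304 to 0.006. Without KO 30 min A alone, Birc3 at 30 min in KO tissue and the Casp8 comparisons that follow turned. Birc3 at 30 min in KO tissue was 0.17 without the 3 arrays of lowest correlation, of which that is 1, and -0.71 to 0.17 over left-out arrays. Casp8 was -0.066 at 30 min in KO tissue (-0.066 to 0.685 over left-out arrays), -0.036 for KO against WT at 30 min (-0.036 to 0.715) and 0.23 for KO at 120 against 30 min (-0.673 to 0.077) without those 3 arrays. Birc2 161883_f_at was 0.16 for KO at 120 against 30 min without them. The control Fas probe set's difference of responses at 120 min ranged from -0.008, without KO 120 min A, to 1.09 over left-out arrays. Same-letter deviations from the group means had a median correlation of -0.017 over 31 pairs (range -0.121 to 0.084), against 0.016 over 50 pairs of different letters. In groups of 2 arrays the deviations are mirror images. The pairs are therefore not independent and cannot decide whether replicate letters pair arrays. The replicate block changed no other call.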
